A study of Mus musculus with 6 samples.

Results

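The transcription factor Nrf2 and its best known target genes in glutathione and redox metabolism were measured in cancer stem cells and bulk cells of mouse mammary tumors. The set comprised 10 genes of the 14897 in the deposited table, found by matching each gene symbol exactly: *Nfe2l2*, *Keap1*, *Gclc*, *Gclm*, *Slc7a11*, *Gsr*, *Txnrd1*, *Srxn1*, *Nqo1* and *Hmox1*. This matching uses no measured value, but the genes were chosen with earlier results of these data known. All 10 passed the filter for testing, 1 RPKM or more in at least 2 libraries, as did 12512 genes. RPKM is a read number scaled by the length of the gene and by the library's total, so levels can be compared between genes. Between libraries it does not adjust for which genes take up the reads. Directions were therefore also counted with each library centred on its median.

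The study asked how the transcriptomes of 2 kinds of breast cancer stem cell (BCSC) differ from the rest of a tumor. Spontaneous breast tumors of FVBN mice carrying the MMTV-Polyoma Virus Middle-T Antigen oncogene (PyMT) were dissociated and sorted into CD29hi CD61+ BCSCs (P1), ALDH+ BCSCs (P2) and the remaining non-CSC cells, called bulk cancer cells (P0). The MMTV promoter drives the oncogene mainly in mammary epithelium, all 3 populations carry it, and neither normal mammary cells nor another oncogene entered the comparison. Each population was sequenced as poly(A) RNA from the same 2 tumors, which gave 6 libraries, and the tumor number pairs them. The labels give neither the age of the mice nor whether both tumors came from separate mice, so p-values measure the spread between these libraries.

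Nrf2, the protein of *Nfe2l2*, is a basic leucine zipper transcription factor that binds antioxidant response elements together with a small Maf protein. In unstressed cells, Keap1 presents Nrf2 to a Cul3 ubiquitin ligase and Nrf2 is degraded, whereas oxidants and electrophiles modify cysteines of Keap1 and let Nrf2 accumulate. Nrf2 activity is therefore set largely at the level of the protein, which was not measured here, and its targets make glutathione, regenerate reduced glutathione and thioredoxin, and remove quinones and heme. The pathway is known to protect tumor cells from oxidants and from drugs.

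The core of the antioxidant response element, TGACNNNGC on either strand, was looked for in the RefSeq promoter windows of build GRCm38.p6, which run from 250 bases before to 50 bases after a gene's start. Of the 10 genes, 7 had a window (9 windows, 3 of them of *Txnrd1*), and there was no entry for *Gclc*, *Gsr* and *Hmox1*. The core was present in windows of 4 of the 7 genes, against 14.0% of the 27025 genes with a window and 12.4% of all 32851 windows. The matches are shown because they are the letters that the set's regulator is known to read, each written 5′ to 3′ with the core in capitals and 10 bases on each side. All 4 are written along the minus strand of the chromosome.
Gclm: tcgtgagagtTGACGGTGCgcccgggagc
Nfe2l2: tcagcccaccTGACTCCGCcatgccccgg
Srxn1: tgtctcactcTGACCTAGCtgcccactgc
Txnrd1: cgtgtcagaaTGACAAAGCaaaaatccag
The *Gclm* match lies at chr3:122245413-122245441, with its core 134 bases before the start of the gene. For *Nfe2l2* the match is at chr2:75704885-75704913, 240 bases before the start. In *Srxn1* it is at chr2:152105542-152105570, 29 bases after the start and so within the transcribed sequence. The *Txnrd1* match, at chr10:82859104-82859132, lies 92 bases before the start in 1 of its 3 windows. No core was found in the windows of *Keap1*, *Nqo1* and *Slc7a11*. A match describes letters and not a bound site, and these windows are short.

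The libraries held 19037070 to 48008802 reads in genes, and each of the 10 genes had at least 343 reads in each library. The luminal markers of the labelled tissue (*Krt8*, *Krt18*, *Epcam* and 4 others) summed to 9264 to 17662 RPKM in every library. The 6 basal markers summed to 301 RPKM (tumor 1) and 346 RPKM (tumor 2) in bulk cells, 905 and 957 in P1, and 666 and 440 in P2. *Krt14* and *Krt17* made up most of each sum and were above bulk cells in P2 of both tumors. In P2 *Myh11* was below bulk cells in both tumors, and *Krt5*, *Trp63* and *Acta2* went opposite ways. Markers of other cells were low except those of fibroblasts (8 of 8 in the table). Only 2 of 7 lymphocyte, 1 of 8 erythroid and 3 of 5 endothelial markers were in the table. The fibroblast markers summed to 1.38 and 6.33 RPKM in P0, to 8.10 and 86.8 in P1 and to 74.8 and 420 in P2. In P0, 5 and 3 of the 8 were at 0. The tumor 1 libraries stood apart by genes without a read, which numbered 3290, 1947 and 3904 in P0, P1 and P2 of tumor 1 but 446, 360 and 759 in tumor 2.

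The 10 genes covered a wide range of levels. *Hmox1*, which encodes the inducible heme oxygenase that opens the heme ring and frees iron, had the highest median over the 6 libraries at 190 RPKM. *Txnrd1*, the cytosolic thioredoxin reductase, followed at 126 RPKM and was below *Hmox1* in each of the 6 libraries, although its range of 95.9 to 147 RPKM overlapped with that of *Hmox1*, which was 96.1 to 350. The medians of *Srxn1* (52.9 RPKM), *Gclm* (41.9), *Gsr* (34.8), *Nfe2l2* (28.2), *Gclc* (26.3) and *Nqo1* (16.3) came next, and the ranges of neighbours in this order overlapped. *Keap1* (8.37 RPKM) and the cystine importer gene *Slc7a11* (3.22) had the lowest medians and changed places in P1 of tumor 1.

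**Figure D1:**
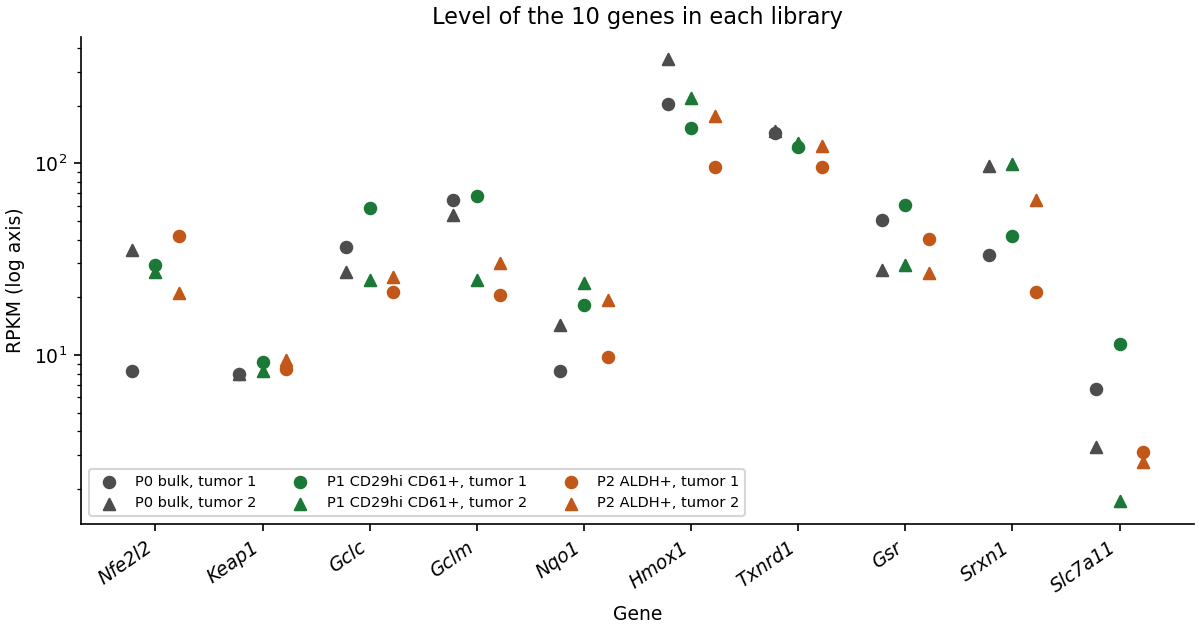
RPKM of the 10 genes (log axis) in each library, with colours for the population and circles and triangles for tumors 1 and 2. *Keap1* lies between 7.93 and 9.37 RPKM in all libraries, the triangles of *Srxn1* lie above its circles, and *Nfe2l2* in P0 of tumor 1 lies at 8.29 RPKM, below the other 5 libraries.

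The regulator pair differed in how steady it was. *Keap1*, the sensor and substrate adaptor, gave 7.95 and 7.93 RPKM in bulk cells of tumors 1 and 2, 9.17 and 8.27 in P1, and 8.46 and 9.37 in P2. Its highest library was 1.18-fold above its lowest, the narrowest range of the 10 genes. *Nfe2l2* gave 8.29 and 35.1 RPKM in bulk cells, 29.3 and 27.2 in P1, and 41.6 and 21.0 in P2. It was thus 3.54-fold higher in P1 than in P0 in tumor 1 and 22.7% lower in tumor 2, and 5.02-fold higher in P2 in tumor 1 and 40.2% lower in tumor 2. The log2 fold changes of *Nfe2l2* were 0.67 (SE 0.64) in P1 and 0.74 (SE 0.64) in P2 against P0, with limma adjusted p-values of 1.00 and 0.985, and without the P0 library of tumor 1 they were -0.31 and -0.24. In that library *Nfe2l2* rested on 741 reads. Of 8311 genes with a mean of at least 5 RPKM, 658 (7.92%) were there at or below 0.5 of every other library. This share was 9.84% in the P2 library of tumor 1 and 0.361% to 1.865% in the rest.

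Against bulk cells, ALDH+ BCSCs had lower levels of 7 of the 10 genes in both tumors, although no single difference passed the test given below. These were both subunits of the enzyme that starts glutathione synthesis, the cystine importer, the reductases of glutathione and thioredoxin, sulfiredoxin and heme oxygenase. Over all 12512 genes tested, 22.9% were lower in P2 in both tumors. *Keap1* and *Nqo1* were higher in both, as were 24.5% of all genes, and *Nfe2l2* went opposite ways. The median log2 fold change, which is the difference in the mean of log2(RPKM + 1) between populations and understates changes of low genes, was -0.42 over the 10 genes and 0.00 over all genes. In bulk RNA of a population, fewer cells expressing a gene and less RNA per cell cannot be told apart.

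Of the log2 fold changes below 0, those of *Gclm* and *Hmox1* were the largest. *Gclm*, the modifier subunit of glutamate-cysteine ligase, was at 64.6 RPKM in P0 and 20.6 in P2 of tumor 1, and at 53.7 and 30.2 in tumor 2. It was lower in P2 by 68.1% and 43.9%, and both P2 libraries lay below both P0 libraries. *Hmox1* was at 204 RPKM in P0 and 96.1 in P2 of tumor 1, and at 350 and 177 in tumor 2, or 52.9% and 49.6% lower, nearly the same share in the 2 tumors. Here too the P2 libraries lay below both P0 libraries. The log2 fold changes were -1.21 (SE 0.49) for *Gclm* and -1.03 (SE 0.42) for *Hmox1*, with limma adjusted p-values of 0.985 for each, so neither passed the threshold. Macrophages are a known source of *Hmox1*, and their markers (9 of 11 in the table, 7 of them at 0 in P0 of tumor 1, *Csf1r* and *C1qa* included) summed to 3.89 and 19.0 RPKM in bulk cells, 6.28 and 32.9 in P1, and 14.7 and 20.0 in P2, and no macrophage marker exceeded 12.4 RPKM in any library. Their part in the *Hmox1* difference was not tested.

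The other genes of glutathione synthesis and reduction were lower by unequal amounts in the tumors. *Gclc*, the catalytic subunit of glutamate-cysteine ligase, was at 36.5 and 21.2 RPKM in P0 and P2 of tumor 1 and at 27.0 and 25.5 in tumor 2, which is 41.9% and 5.53% lower. *Slc7a11* imports the cystine from which cysteine for glutathione is made. It was at 6.63 and 3.11 RPKM in P0 and P2 of tumor 1 and at 3.33 and 2.75 in tumor 2, or 53.1% and 17.2% lower. *Gsr*, the reductase that regenerates glutathione with NADPH, was at 50.6 and 40.1 RPKM in tumor 1 and at 27.7 and 26.8 in tumor 2, or 20.9% and 3.33% lower, the latter from 1441 and 1364 reads, and its populations overlapped. The larger difference was in tumor 1 for each of the 3 genes, and for *Gclc* and *Slc7a11* both P2 libraries were below both P0 libraries.

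In the thioredoxin arm, *Srxn1* encodes sulfiredoxin, which rescues overoxidized peroxiredoxins. It was at 33.3 and 21.4 RPKM in P0 and P2 of tumor 1 and at 96.5 and 64.0 in tumor 2, lower by 35.7% and 33.7%. The share was thus alike in the tumors while the levels of *Srxn1* were not, and its populations overlapped. *Txnrd1* was at 143 and 95.9 RPKM in tumor 1 and at 147 and 123 in tumor 2, or 33.1% and 16.2% lower, with no overlap of P2 and P0. *Nqo1*, the quinone reductase that is a standard readout of Nrf2, went the other way. It was at 8.24 and 9.73 RPKM in P0 and P2 of tumor 1 and at 14.3 and 19.4 in tumor 2, ratios of 1.18 and 1.35.

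The test, which did not pair the libraries by tumor, did not separate these differences from the spread between libraries. In P2 against P0, limma called 0 of the 12512 genes (0.0%) at an adjusted p under 0.05, and the smallest adjusted p of any gene was 0.0821. At an unadjusted p under 0.05 there were 489 genes, 348 higher and 141 lower in P2, and *Gclm* and *Hmox1* were 2 of the 141, which are 1.13% of the genes tested. A replicate block for the tumor gave 3 called genes, and voom on the reads called 1, with 0 of the 10 among them. With the block the SE was 0.26 for *Hmox1* (limma adjusted p 0.655) and 0.45 for *Gclm* (limma adjusted p 0.781). Over the alternatives the adjusted p of *Hmox1* ranged from 0.25 to 1.00 and that of *Gclm* from 0.330 to 1.00. Without the P2 library of tumor 2, 40 genes were called, and without the P0 library of tumor 2, 1 was, again 0 of the 10. The fibroblast markers given above moved with P2, and their part in these differences was not tested.

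**Figure D2:**
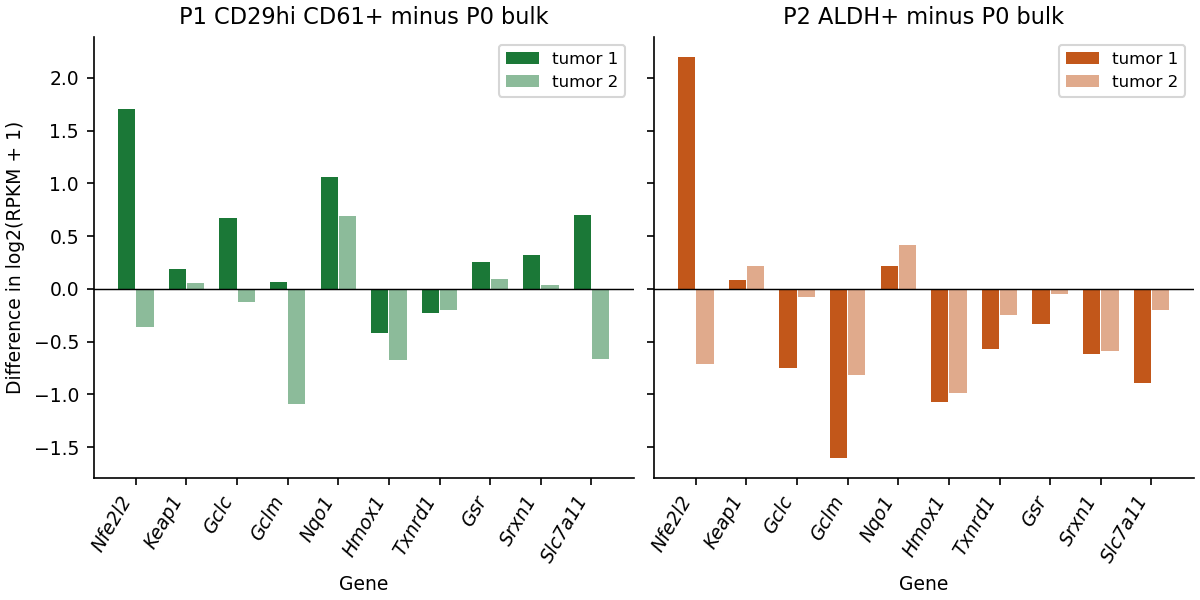
Difference in log2(RPKM + 1) from bulk cells (P0) within each tumor for CD29hi CD61+ BCSCs (P1, left) and ALDH+ BCSCs (P2, right), with dark bars for tumor 1 and pale bars for tumor 2. In P2 both bars are below 0 for 7 genes, at -1.08 and -0.98 for *Hmox1*, whereas in P1 the bars of *Nfe2l2*, *Gclc*, *Gclm* and *Slc7a11* point opposite ways.

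Against the same P0 libraries, CD29hi CD61+ BCSCs showed no shared direction across the set. *Nqo1* was the gene with the largest difference held in both tumors, at 8.24 RPKM in P0 and 18.3 in P1 of tumor 1 and at 14.3 and 23.7 in tumor 2. Both P1 libraries were above both P0 libraries, by 2.22-fold and 1.66-fold within the tumors. *Keap1*, *Gsr* and *Srxn1* were also higher in both tumors, so that 4 of the 10 genes were, against 29.2% of all genes tested. *Hmox1* and *Txnrd1* were lower in both, or 2 of the 10, against 17.6%. Over all genes the median of the log2 fold change was 0.12 for P1, and with each library centred on its own median 2 genes were higher (*Nqo1* and *Gsr*) and 4 were lower (*Keap1*, *Gclm*, *Hmox1* and *Txnrd1*).

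*Hmox1* and *Txnrd1*, the genes lower than P0 in P1 of both tumors, are given next. *Hmox1* was at 152 RPKM in P1 of tumor 1 and at 218 in P1 of tumor 2, or 25.5% and 37.7% below P0. *Txnrd1* was at 122 and 128 RPKM, or 15.0% and 12.9% below P0, and did not overlap with it. *Srxn1* was at 41.7 and 99.0 RPKM and *Gsr* at 60.6 and 29.5 in P1 of tumors 1 and 2. Their ratios to P0 were 1.25 and 1.03 for *Srxn1* and 1.20 and 1.07 for *Gsr*, which is small beside the difference between the tumors.

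Genes of glutathione synthesis went opposite ways in the tumors. *Gclc* was at 58.8 RPKM in P1 of tumor 1, the highest of the 6 libraries and 1.61-fold above P0, and at 24.6 in P1 of tumor 2, 8.75% below P0. *Gclm* was at 67.5 RPKM in P1 of tumor 1, a ratio of 1.05, but at 24.6 in tumor 2, 54.1% below P0. *Slc7a11* was at 11.4 RPKM in P1 of tumor 1, 1.72-fold above P0, and at 1.72 in tumor 2, 48.2% below P0. The highest and the lowest library of *Slc7a11* were thus both of P1, and they differed 6.62-fold.

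In P1 against P0, limma called 0 of the 12512 genes (0.0%), with 237 at an unadjusted p under 0.05 and 0 of the 10 among them, and the limma adjusted p of each of the 10 genes was 1.00. Called genes numbered 9 with voom on the reads and 4 with voom and the tumor as a replicate block, and 0 of the 10 was called in either. With voom and the block *Hmox1* alone of the 10 had an unadjusted limma p under 0.05 (0.042, adjusted 0.776). *Nqo1* had a log2 fold change of 0.88 (SE 0.49), and the median over the 10 genes was 0.15.

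Set against each other, the BCSC populations differed in the same sense in both tumors for 5 of the 10 genes, all of them higher in CD29hi CD61+ than in ALDH+ BCSCs, against 31.0% of all genes tested. The P1 to P2 ratios in tumors 1 and 2 were 1.95 and 1.55 for *Srxn1*, 1.88 and 1.23 for *Nqo1* and 1.58 and 1.24 for *Hmox1*. They were 1.51 and 1.10 for *Gsr* and 1.27 and 1.04 for *Txnrd1*. Lower in P1 in both tumors was 0 of the 10, against 21.5% of all genes, or 1 (*Keap1*) with centred libraries. *Gclc*, *Gclm* and *Slc7a11* were 2.77-fold, 3.28-fold and 3.67-fold higher in P1 in tumor 1, and 3.41%, 18.3% and 37.5% lower in tumor 2. The median log2 fold change was 0.52 over the 10 genes and 0.11 over all genes. limma called 0 genes (0.0%), with 312 at an unadjusted p under 0.05 and 0 of the 10 among them, and voom called 7, again 0 of the 10. These fits did not pair the libraries. With the tumor as a replicate block, *Srxn1* alone of the 10 had an unadjusted limma p under 0.05 (0.025, adjusted 0.949). With voom and the block *Srxn1*, *Slc7a11* and *Gclc* did (limma p 0.027, 0.030 and 0.033, adjusted 0.851, 0.856 and 0.856). With voom and the block 16 genes were called, and without the P2 library of tumor 2 55 were, with 0 of the 10 in either.

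*Srxn1*, *Hmox1*, *Nqo1* and *Txnrd1* were higher and *Gsr* and *Slc7a11* lower in tumor 2 than in tumor 1 in all 3 populations. The comparison of tumor 2 with tumor 1, with populations as groups, was added after the values were seen, and it sets 1 tumor against 1 other. All tumor 1 libraries also had more genes without a read, as given above. A difference between the tumors and a difference between their libraries cannot be told apart. In P0, P1 and P2 *Srxn1* had 33.3, 41.7 and 21.4 RPKM in tumor 1 but 96.5, 99.0 and 64.0 in tumor 2. It was higher in tumor 2 by 2.90-fold, 2.37-fold and 2.99-fold, with no overlap, and its log2 fold change was 1.42 (SE 0.23). The limma adjusted p was 0.0552, and it ranged from 0.0187 with voom on the reads, which called the gene, to 0.218. Without either P2 library the log2 fold change of *Srxn1* was 1.37. In this fit a library left without its partner adds nothing to the tumor difference. Leaving out either library of a population is thus 1 check and not 2.

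*Hmox1* was 1.72-fold, 1.44-fold and 1.84-fold higher in tumor 2 in P0, P1 and P2, and its log2 fold change of 0.72 (SE 0.21) had a limma adjusted p of 0.218. *Nqo1* was 1.74-fold, 1.30-fold and 1.99-fold higher, with a log2 fold change of 0.67 (SE 0.33) and a limma adjusted p of 0.429. *Gsr* was the reverse, 45.2%, 51.2% and 33.1% lower in tumor 2, with a log2 fold change of -0.81 (SE 0.25) and a limma adjusted p of 0.25, and its tumors did not overlap. *Slc7a11* was 49.8%, 84.9% and 11.4% lower. With *Txnrd1*, 4 of the 10 genes were higher in tumor 2 in all 3 populations, against 21.6% of all genes tested, and 2 were lower, against 13.7%. After centring 3 were higher and 3 lower, as *Txnrd1* left the first group and *Keap1* joined the second. At a limma adjusted p under 0.05 the tumors differed in 44 genes (0.352%), 30 higher and 14 lower in tumor 2, and 0 of the 10 was among them. Leaving out 1 library moved that count between 2 (without either P1 library) and 204 (without the P2 library of tumor 2). Without the P0 library of tumor 1 it was 17, and without the P2 library of tumor 1 it was 200.

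**Figure D3:**
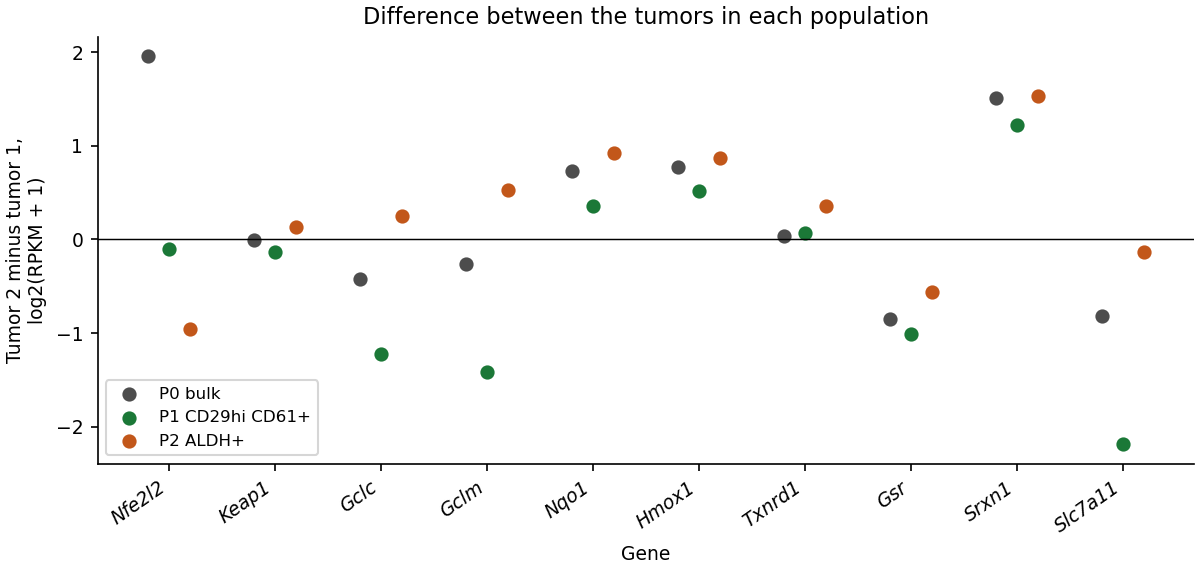
Tumor 2 minus tumor 1 in log2(RPKM + 1) for each of the 10 genes, with a point for each population. The 3 points of *Srxn1* lie at 1.51, 1.23 and 1.54 for P0, P1 and P2, those of *Gsr* all lie below 0, and those of *Nfe2l2* run from 1.96 in P0 to -0.96 in P2.

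Other genes of the pathway were followed in 10 lists of 114 genes, of which 104 were in the table and 97 were tested. Most genes named from a list were picked for the same direction against P0 in both tumors, so that agreement is not a result. limma called 0 of the 97 in each comparison of populations. In P1 against P0, 23.7% of the 97 were higher and 16.5% lower in both tumors, and in P2 against P0 26.8% were higher and 17.5% lower. Of all genes tested, as given above, 29.2% and 17.6% were so in P1 and 24.5% and 22.9% in P2. The smallest limma adjusted p in any of the lists was 0.985 in P2 and 1.00 in P1 against P0. Over all genes tested the median log2 fold change was 0.12 in P1 and 0.00 in P2 against P0. The share of all genes above 0 was not counted, so counts of list genes above 0 have no background beside them.

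Thioredoxin carries electrons from *Txnrd1* to peroxiredoxins, which remove peroxides. Of 11 thioredoxin and peroxiredoxin genes, 10 had a log2 fold change above 0 in P2 against P0. Their median was 0.38, against 0.00 over all genes. In both tumors 4 were higher and 1 lower, beside 24.5% and 22.9% of all genes tested. The lower gene was *Txnrd3*, a relative of *Txnrd1* named after its values were seen, which gave 3.56 and 4.97 RPKM in bulk cells, 3.74 and 2.58 in P1, and 1.76 and 2.48 in P2. *Prdx5*, a peroxiredoxin of mitochondria and peroxisomes, gave 30.8 and 24.1 RPKM in bulk cells of tumors 1 and 2, 44.8 and 52.2 in P1, and 110 and 49.99 in P2. *Txn1*, the substrate of *Txnrd1*, gave 46.2 and 71.3 RPKM in bulk cells, 86.9 and 63.7 in P1, and 113 and 101.5 in P2. Both P2 libraries exceeded both P0 libraries for each of these genes. *Prdx6* gave 38.7 and 58.8 RPKM in bulk cells, 61.04 and 70.9 in P1, and 56.6 and 82.6 in P2. *Prdx3*, the mitochondrial peroxiredoxin, gave 20.3 and 21.2 RPKM in bulk cells, 13.4 and 12.7 in P1, and 35.2 and 21.3 in P2.

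Of the 8 genes of NADPH supply, 7 had a log2 fold change above 0 in P1 and 6 in P2 against P0, with 4 higher in both tumors in each. Of all genes tested, 29.2% were higher in both tumors in P1 and 24.5% in P2. *Pgls*, of the oxidative pentose phosphate pathway, gave 5.35 and 8.74 RPKM in bulk cells, 7.98 and 12.6 in P1, and 27.6 and 22.4 in P2. It was 5.15-fold and 2.56-fold higher in P2 than in P0. *Tkt* and *Taldo1*, of the non-oxidative branch, had log2 fold changes of 0.49 and 0.41 in P1 and of 0.54 and 0.33 in P2.

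The 17 tested genes of glutathione synthesis, turnover and use had a median log2 fold change of 0.07 for P1 and 0.15 for P2. *Gpx3*, the secreted glutathione peroxidase, gave 4.01 and 3.73 RPKM in bulk cells, 10.2 and 12.7 in P1, and 5.02 and 12.8 in P2. It was the 1 gene of the 97 that was higher in P1 at an unadjusted p under 0.05, with a log2 fold change of 1.35, and 0 were lower. Of all 12512 genes tested, 196 were higher and 41 lower in P1 at that threshold. *Chac1*, which degrades glutathione, gave 45.2 and 11.2 RPKM in bulk cells, 25.7 and 6.67 in P1, and 39.9 and 8.495 in P2. *Ggct* and *Oplah* act in glutathione turnover. *Ggct* was at 0 and 2.87 RPKM in bulk cells, 0.459 and 6.12 in P1, and 0 and 4.05 in P2. *Oplah* gave 3.30 and 3.98 RPKM in bulk cells, 4.63 and 3.96 in P1, and 4.91 and 5.22 in P2. *Ggt1*, which cleaves glutathione outside the cell, gave 3.64 and 8.59 RPKM in bulk cells, 2.57 and 9.21 in P1, and 5.50 and 10.9 in P2.

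Of 18 tested glutathione S-transferases, which join glutathione to electrophiles, 4 were higher and 0 lower in both tumors in P1, and 5 were higher and 2 lower in P2. Of all genes tested, 29.2% were higher and 17.6% lower in P1, and 24.5% higher and 22.9% lower in P2. *Gsto1* gave 23.7 and 28.0 RPKM in bulk cells, 40.1 and 36.4 in P1, and 43.8 and 44.1 in P2. *Gsta4* gave 0.03 and 19.6 RPKM in bulk cells, 23.9 and 32.3 in P1, and 13.6 and 25.9 in P2. *Gstt3* gave 0.01 and 7.60 RPKM in bulk cells, 4.98 and 7.54 in P1, and 8.67 and 15.2 in P2, so that both genes were near 0 in P0 of tumor 1 alone. *Gsta3* was at 0 and 0.766 RPKM in bulk cells, 0 and 0.719 in P1, and 7.26 and 1.5 in P2. *Gstp1*, at 48.2 to 75.0 RPKM, has a near-identical copy, *Gstp2*, and its values are uncertain.

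*Blvrb*, a biliverdin reductase, was higher than in bulk cells in both BCSC populations of each tumor, where *Hmox1* was lower. *Blvrb* was picked for the same direction in both tumors, as said above. Of the 8 genes of heme and iron handling, 5 had a log2 fold change above 0 in P1 and 5 in P2. *Blvrb* gave 2.85 and 8.35 RPKM in bulk cells of tumors 1 and 2, 6.55 and 18.0 in P1, and 7.21 and 21.3 in P2. Its ratios to P0 were 2.30 and 2.16 in P1 and 2.53 and 2.55 in P2. *Blvra*, the other biliverdin reductase, gave 5.10 and 5.32 RPKM in bulk cells, 12.4 and 8.87 in P1, and 6.25 and 4.35 in P2. *Fth1*, the ferritin heavy chain that stores iron, was at 887 to 1382 RPKM, and the constitutive heme oxygenase gene *Hmox2* gave 31.5 and 27.4 RPKM in bulk cells and 15.1 and 25.3 in P2. *Slc48a1*, a heme transporter, gave 160 and 44.5 RPKM in bulk cells, 76.8 and 37.9 in P1, and 85.5 and 43.7 in P2.

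Among 13 genes that control Nrf2, 2 had a log2 fold change above 0 in P2 and 5 in P1, with medians of -0.20 and -0.15. In both tumors 2 were higher and 2 lower in P1 than in P0, and 0 were higher and 3 lower in P2. Of all genes tested, 29.2% were higher and 17.6% lower in P1, and 24.5% higher and 22.9% lower in P2. *Rbx1*, the RING subunit of the Cul3 ligase, gave 31.2 and 18.4 RPKM in bulk cells, 38.2 and 25.1 in P1, and 25.3 and 24.9 in P2. *Maff*, a small Maf protein, gave 43.0 and 46.6 RPKM in bulk cells, 46.4 and 53.4 in P1, and 16.3 and 52.6 in P2. Both were higher in P1 in both tumors. *Gsk3b*, a kinase that marks Nrf2 for degradation, gave 24.6 and 38.8 RPKM in bulk cells, 25.8 and 29.1 in P1, and 23.0 and 24.9 in P2. *Mafg*, a small Maf partner of Nrf2, gave 71.5 and 28.5 RPKM in bulk cells, 30.7 and 31.3 in P1, and 19.7 and 28.0 in P2. *Bach1*, which competes with Nrf2 at *Hmox1*, gave 20.3 and 35.6 RPKM in bulk cells, 18.8 and 31.1 in P1, and 28.6 and 29.8 in P2.

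*Slc7a11* and *Chac1* are also known targets of the stress factor Atf4, and 10 other genes of that response were listed, of which 2 had a log2 fold change above 0 in P1 and 3 in P2 against P0. *Sesn2*, which encodes a stress-induced sestrin, gave 32.5 and 33.8 RPKM in bulk cells, 17.5 and 24.0 in P1, and 11.2 and 19.3 in P2, with no overlap between P0 and either BCSC population. Of the 97 genes it was the 1 that was lower in P2 at an unadjusted p under 0.05, and *Pgls*, *Prdx5*, *Txn1* and *Gsto1* were the 4 that were higher. Of all 12512 genes tested, 141 (1.13%) were lower and 348 higher in P2 at that threshold. *Atf4* itself gave 707 and 531 RPKM in bulk cells, 561 and 516 in P1, and 526 and 416 in P2. *Phgdh*, *Shmt2* and *Mthfd2* act in serine and one-carbon metabolism. *Phgdh* gave 67.7 and 30.3 RPKM in bulk cells, 81.9 and 42.9 in P1, and 48.6 and 45.1 in P2. *Shmt2* gave 46.6 and 20.6 RPKM in bulk cells, 29.2 and 21.0 in P1, and 54.1 and 28.3 in P2. *Mthfd2* gave 19.5 and 13.8 RPKM in bulk cells, 16.2 and 5.44 in P1, and 26.04 and 5.17 in P2. Between the tumors 8 of the 10 genes were lower in tumor 2 in all 3 populations, against 13.7% of all genes tested. Their median log2 fold change was -0.78, against 0.15 over all genes. *Psat1*, of serine synthesis, was at 155, 107 and 162 RPKM in P0, P1 and P2 of tumor 1 and at 40.4, 39.0 and 34.8 in tumor 2, with a limma adjusted p of 0.0233. *Chac1*, with tumor 2 to tumor 1 ratios of 0.247, 0.260 and 0.213, was the other of the 2 list genes called between the tumors, at a limma adjusted p of 0.0478. Both calls were lost with a pseudocount of 0.1, without the filter, and without the P0 library of tumor 1 or either P1 library. That of *Chac1* was also lost with voom and without the P0 library of tumor 2. Over the alternatives the limma adjusted p ranged from 0.00382 to 0.115 for *Psat1* and from 0.00976 to 0.225 for *Chac1*.

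Lists of carbonyl and quinone enzymes (6 genes tested), exporters of glutathione conjugates (2) and superoxide and peroxide removal (4) were small, with 4, 1 and 4 genes above 0 on the log2 scale in P1 and 3, 1 and 4 in P2. *Cbr1*, a carbonyl reductase, gave 1.38 and 8.80 RPKM in bulk cells, 13.1 and 5.79 in P1, and 12.02 and 10.1 in P2. *Ephx1*, an epoxide hydrolase, gave 24.5 and 23.1 RPKM in bulk cells, 29.2 and 26.7 in P1, and 51.1 and 23.8 in P2. *Ugdh*, which supplies glucuronate for conjugation, gave 8.34 and 14.4 RPKM in bulk cells, 21.2 and 17.5 in P1, and 4.202 and 18.1 in P2. *Abcc1*, a pump for glutathione conjugates, gave 33.9 and 18.4 RPKM in bulk cells, 21.9 and 17.4 in P1, and 21.9 and 13.5 in P2, lower than P0 in both BCSC populations of each tumor. *Sod3*, the secreted superoxide dismutase, was listed at 0 in P0 and P2 of tumor 1 and was at 0.855 and 2.46 RPKM in those of tumor 2, beside 1.89 and 6.16 RPKM in P1 of tumors 1 and 2.

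**Figure D4:**
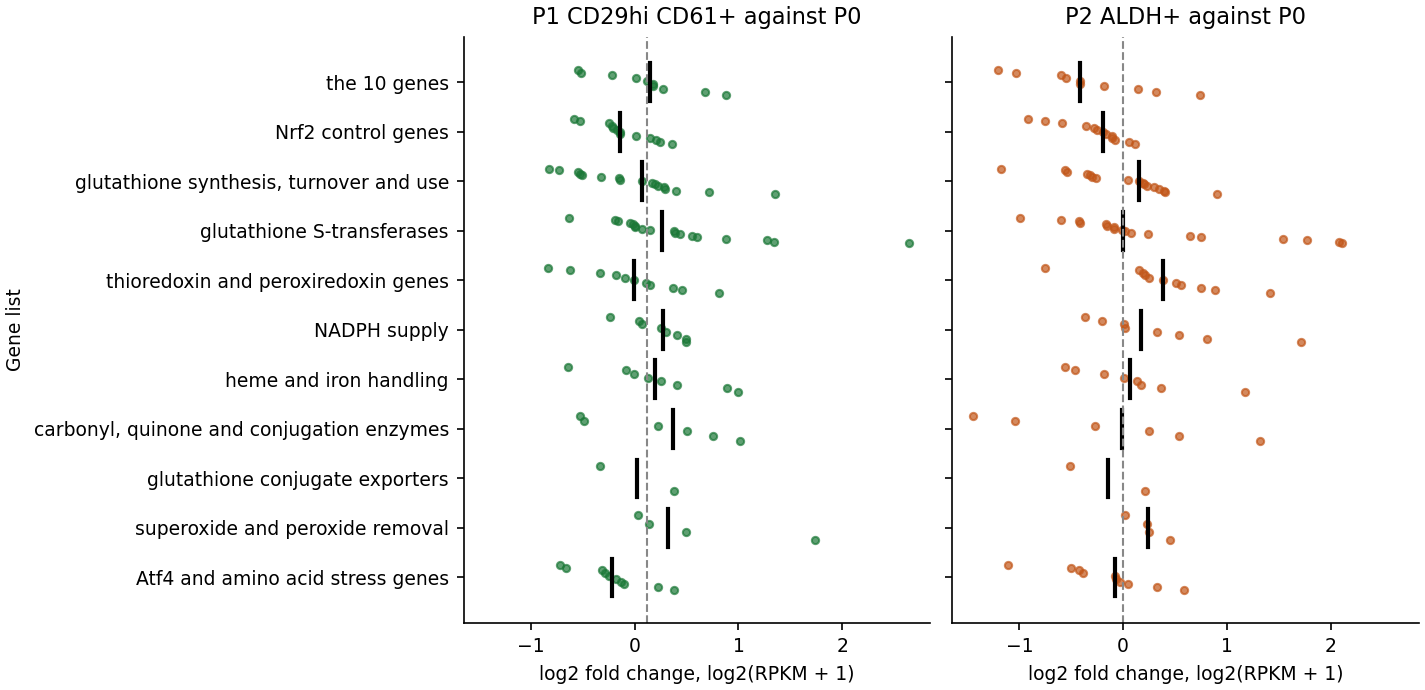
log2 fold changes against bulk cells of the 10 genes and of the tested genes of each wider list in CD29hi CD61+ (left) and ALDH+ BCSCs (right). Each point is a gene, black bars are list medians and the dashed line is the median of all 12512 genes (0.12 and 0.00); in ALDH+ BCSCs the median of the 10 genes lies at -0.42 and that of the thioredoxin and peroxiredoxin genes at 0.38.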

How the data were processed

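Poly(A) RNA was isolated and libraries were made with the PrepX mRNA kit and sequenced on a HiSeq instrument. The authors deposited RPKM for 6 libraries and, for P1 and P0, group means as a normalized signal. The authors also deposited a fold change, its log2 value, a p-value and an adjusted p-value for P1 against P0, none of which was used. The aligner and genome build are not given in the sources used here, and units were read from the values. The deposited signal served to recover gene lengths (median 2904 bp), with which the RPKM of all genes but 1 converted back to whole reads (tolerance 0.01). Reads were 36200687 and 19443201 in P0 of tumors 1 and 2, 48008802 and 21577459 in P1, and 23773850 and 19037070 in P2.

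Populations were compared with limma 3.58.1 in R 4.3.3 (trend option, log2(RPKM + 1), no block, 6 libraries in 1 model), with Benjamini-Hochberg adjustment over the 12512 genes that have a symbol and reach 1 RPKM in 2 or more libraries. Libraries with the same number come from the same tumor by the labels, and the correlation of their deviations from the population means across genes was 0.185 (P0 and P1), 0.211 (P0 and P2) and 0.242 (P1 and P2). Both comparisons with P0 share its libraries. Alternatives were a pseudocount of 0.1, no filter, centred libraries, the tumor as a replicate block, voom on recovered reads with and without the block, and each library left out. The procedure was tested on simulated data. The genes, the lists and the tests were chosen with earlier results of these data known. Named list genes were, for each list and each comparison with P0, at most 3 with at least 5 RPKM in a library, the same direction in both tumors and the largest smaller within-tumor difference, and *Gstp1*, *Txnrd3*, and *Psat1* and *Chac1* between tumors were named after their values were seen. Python 3.11.15, numpy 2.4.6, pandas 2.3.3 and matplotlib 3.10.9 were used.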

Additional observations from a re-analysis of the deposited data

Results flagged for a closer look

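*Srxn1* and *Gsr* were higher than P0 in P1 in both tumors and lower than P0 in P2 in both tumors. In tumors 1 and 2, *Srxn1* differed from P0 by 0.32 and 0.036 log2 units in P1 and by -0.61 and -0.59 in P2. *Gsr* differed by 0.25 and 0.088 in P1 and by -0.33 and -0.047 in P2. With each library centred on its median *Srxn1* was no longer higher in P1 in both tumors. The fits with 1 library left out had no tumor block, so a population seen in 1 tumor was set against another seen in both. With 1 library left out, the log2 fold change against P0 reached -0.58 in P1 (without the P0 library of tumor 1) and 0.17 in P2 (without the P2 library of tumor 1) for *Srxn1*, and -0.33 in P1 (without the P1 library of tumor 1) and 0.23 in P2 (without the P0 library of tumor 1) for *Gsr*. The log2 fold change of P1 against P2 was 0.78 (SE 0.68) for *Srxn1* and 0.36 (SE 0.47) for *Gsr*. The limma adjusted p of this difference was 1.00 for each, so the difference between the populations was not past the threshold. With the tumor as a replicate block the SEs were 0.29 and 0.31, at a limma adjusted p of 0.949 for each.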

How the results depend on the processing

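0 of the 10 genes was called in any comparison of populations under any alternative. Genes called in P1 against P0 numbered 9 with voom on the reads and 4 with voom and the tumor as a replicate block, against 0. In P2 against P0 there were 2 with a pseudocount of 0.1, 3 with the tumor as a replicate block, 1 with voom and 6 with voom and the block, and 0 to 40 with 1 library left out. In P1 against P2 there were 7 with voom, 16 with voom and the block, and 0 to 55 with 1 library left out. Between the tumors there were 0 with a pseudocount of 0.1, 10 without a filter, 75 with voom (1 of the 10 genes, *Srxn1*) and 2 to 204 with 1 library left out (0 to 1 of the 10). The block changed no other call. With centred libraries 2 genes were higher and 4 lower in P1 than in P0 in both tumors, and 1 was lower in P1 than in P2. The log2 fold change in P1 against P0 turned to -0.069 with a pseudocount of 0.1 and to -0.13 with centring for *Slc7a11*, and to -0.0275 with centring for *Keap1*.

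With 1 library left out, where the lone library is assumed to vary like the others, log2 fold changes in P1 against P0 ran from -0.31 to 1.65 for *Nfe2l2*, -0.58 to 0.93 for *Srxn1*, -0.33 to 0.68 for *Gsr*, -1.08 to 1.11 for *Slc7a11*, -0.34 to 0.88 for *Gclc* and -1.22 to 0.19 for *Gclm*. In P2 against P0 they ran from -0.24 to 1.72 for *Nfe2l2*, -0.15 to 0.78 for *Nqo1*, -0.61 to 0.23 for *Gsr* and -1.37 to 0.17 for *Srxn1*. In P1 against P2 they ran from -0.0171 to 1.40 for *Gclm*, -0.15 to 0.87 for *Gsr*, -0.53 to 1.66 for *Slc7a11*, -0.095 to 0.038 for *Keap1* and -0.55 to 0.41 for *Nfe2l2*. Between the tumors they ran from -0.53 to 0.93 for *Nfe2l2*, -0.068 to 0.0648 for *Keap1* and -0.84 to 0.13 for *Gclm*. There the model held both population and tumor, so the lone library added nothing to the tumor difference. Leaving out either library of a population gave the same log2 fold change. Of the values of the 10 genes under all alternatives, 31 turned direction and 426 kept both direction and side of the threshold. The remaining values, all of *Srxn1* between the tumors, kept direction but changed side. The direction of many of the 426 was fixed in advance. Between populations, dropping the filter, adding the block to limma or leaving out a library of the third population cannot move a log2 fold change. The tally is therefore no measure of robustness. The fits between populations had no tumor block, so leaving out 1 library also changed the share of each tumor in a population. The cause of the shifts was not tested.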

Other observations

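The balance of the glutamate-cysteine ligase subunits was looked at after the values were seen. The ratio of *Gclm* to *Gclc* RPKM within a library, which does not depend on the scaling between libraries, was 1.77 and 1.99 in P0 of tumors 1 and 2, 1.15 and 1.00 in P1 and 0.971 and 1.18 in P2. Both P0 libraries thus lay above all 4 BCSC libraries. The ratio describes unequal levels of the subunit mRNAs and was not tested.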
